A study of Sus scrofa with 61 samples.

Results

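Genes of the proteasome were followed in the longissimus muscle of 61 pig fetuses, each measured on its own one-colour expression array. The members were the array probes whose gene name starts with PSMA, PSMB, PSMC, PSMD, PSME, PSMF or PSMG and a digit, and which the scanner marked as well above background for no less than 80% of a group's arrays. The rule named 117 probes of 46 genes, and 114 probes of 45 genes passed the filter among the 42436 probes kept from 60305, which carry 27860 different gene or transcript names. PSMC3IP, which bears the name but is a recombination protein rather than a proteasome component, was counted apart, which left 112 probes of 44 genes. Of these 112 probes, 108 were well above background in all 8 groups. The 3 probes that failed were the only probe of PSMD5 and 1 further probe each of PSMB8 and PSMC2, and no probe carried the names PSMA1, PSMA7 or PSMA8. PSMF1 passed through 1 group only and was well above background on 29 of 61 arrays.

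The fetuses were purebred Large White (LW), purebred Meishan (MS), or one of both reciprocal crosses, LWMS (Meishan sow, Large White boar) and MSLW (Large White sow, Meishan boar), taken at day 90 or day 110 of gestation. Each genotype had 8 fetuses at day 90, and day 110 held 9 LW, 7 MS, 8 LWMS and 5 MSLW fetuses. Boars of both breeds sired fetuses of the same sow, and littermates could therefore be purebred or crossed. The sow of a fetus is not named in the labels, so littermates entered as separate fetuses and the p-values measure the spread between these fetuses.

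The proteasome is the barrel-shaped protease that degrades ubiquitin-tagged proteins, and in muscle it carries out much of the turnover of contractile proteins. Its core is built from alpha rings, which gate the channel, and beta rings, of which PSMB5, PSMB6 and PSMB7 carry the constitutive active sites. Interferon replaces these by PSMB8, PSMB9 and PSMB10, forming the immunoproteasome that cuts peptides for presentation by MHC class I. The core is capped by a regulatory particle of ATPases (PSMC) and non-ATPase subunits (PSMD), or by the activators PSME1 with PSME2, PSME3 or PSME4.

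The array reads each gene with probes of 60 bases, and the first 30 bases of the probes on which the results turned are printed as the scanner files list them. Capitals mark a stretch that 2 probes of a gene share. The immunoproteasome probes come first, followed by both activators with the clearest change with age.
PSMB10 (A_72_P644145, brightest): gagctggtggaagaaactgtgcaggccatg
PSMB10 (A_72_P024281): gctgcgaacactgagctctcccacaaagcc
PSMB10 (A_72_P003971): AGGCTTACTTGGAATAAGGAacaaggagga
PSMB10 (A_72_P501185): aagtaagcctAGGCTTACTTGGAATAAGGA
PSMB9 (A_72_P440071): attacagctgctggtgtggaccatcgagta
PSMB8 (A_72_P444948): tgttcatgccactcatcgagacagctattc
PSME4 (A_72_P306533): gagcatttgctgaaaaactggggtttggtg
PSME2 (O12146): tttaccatattatcagcagcaacctggaga
The PSMB10 probes A_72_P003971 and A_72_P501185 share 50 of their 60 bases, and another PSMB10 probe has the same 60 bases as A_72_P003971, so these 3 are not separate readings. The brightest probe shares 15 bases with A_72_P501185 and 10 with A_72_P003971, and A_72_P024281 shares no stretch of 8 or more with the others. The next set shows genes whose probes gave different changes with age.
PSMD1 (A_72_P628522, brightest): agattttacagccttgtattggaaatgcct
PSMD1 (A_72_P073866): AGATGCCGAAAGTTCAGTAtaaatcaaatt
PSMD1 (O8719): caaggacttaaAGATGCCGAAAGTTCAGTA
PSME3 (O5617, brightest): ttggagggctgtctaggaccctagctccct
PSME3 (A_72_P232782): aatcagtatgtcactctacatgacatgatc
The PSMD1 probes A_72_P073866 and O8719 share 49 bases.

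Arrays had 34346 to 45683 probes well above background, with a median of 43016 at day 90 and 41318 at day 110, and no array had more than 2 saturated spots. All 6 skeletal muscle markers were measured, with mean log2 intensities of 14.3 to 18.8. The values given are quantile-normalised log2 intensities, a gene stands for its brightest kept probe unless said otherwise, and differences are log2 differences ± SE. A gene was called at an adjusted p under 1% in limma, with Benjamini-Hochberg adjustment over all kept probes. The signal of the proteasome genes was high, with a median of 12.48 over their brightest probes against 8.15 over all kept probes. The choice of the brightest probe raises this median for genes with several probes.

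The first question was which subunits changed between day 90 and day 110. Averaged over the 4 genotypes, 21 of 44 proteasome genes (47.7%) rose and 7 (15.9%) fell, where 37.3% of all kept probes rose and 35% fell. The median difference was 0.11 over the members and 0.04 over all kept probes. Counted as probes, 61 of 112 rose and 14 fell. This split depended on the scaling: when each array was scaled to its 75th percentile instead of quantile normalised, 34 genes rose and 3 fell, with medians of 0.36 over the members and 0.09 over all kept probes. Of all kept probes, that scaling called 30428, 56.1% of them higher, against 30662 and 51.6% under quantile normalisation. Under scaling to the 75th percentile PSMB4, PSMB7 and PSMC1 turned from lower to higher at day 110, so the direction of these 3 genes was not settled. Nor was that of PSME3, counted among the 7 that fell, whose 2 probes were called in opposite directions. In whole muscle, a lower share of a cell type and less RNA per cell cannot be told apart.

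**Figure D1:**
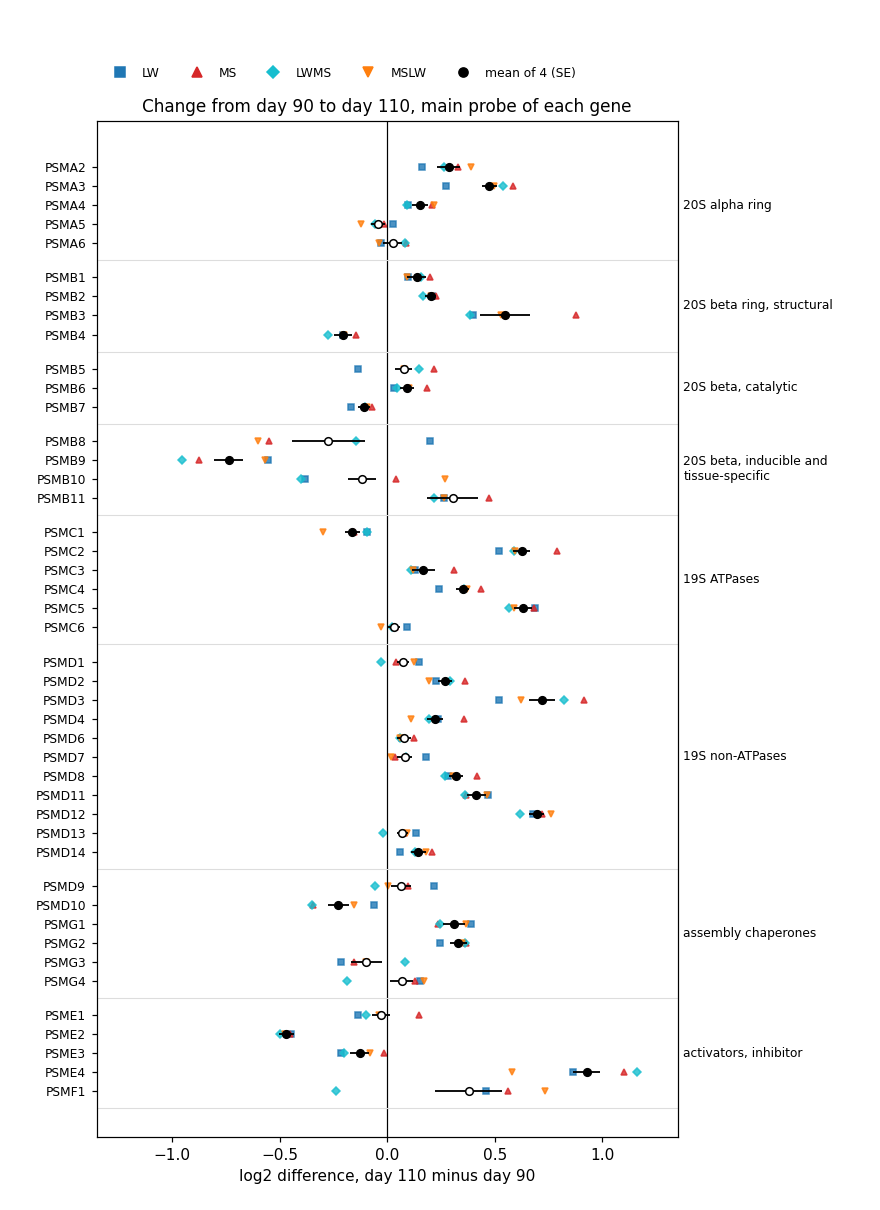
Difference between day 110 and day 90 (log2, x axis) for the 44 proteasome genes, grouped by role (y axis). Each genotype has 1 marker, and the mean over genotypes ± SE is in black. Black markers are filled where the mean passed an adjusted p of 1% and white inside otherwise. The genotype markers are always filled, whether called or not. The means of the non-ATPase subunits of the regulatory particle all lie to the right of 0 and those of PSMB9 and PSME2 to the left, while PSMB4, PSMB7 and PSMC1 change side under scaling to the 75th percentile.

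The regulatory particle was read first. Of its 11 measured non-ATPase subunits, 7 (63.6%) rose, none fell and all 11 mean differences were positive. Of all kept probes, 37.3% rose. PSMD12, a scaffold subunit of the lid, ran from 8.83 over a median of 9.03 to 9.37 in LW fetuses at day 90 and from 9.59 over 9.72 to 9.91 at day 110. Its mean rise was 0.69 ± 0.04 (adjusted p = 7.52e-25), and the days did not overlap in any of the 4 genotypes. PSMD3, another lid subunit, rose by 0.72 ± 0.06 (9.82e-17), and PSMD11, PSMD8, PSMD2, PSMD4 and PSMD14 rose by 0.14 to 0.42. PSMD14 is the deubiquitinase of the lid and PSMD4 a ubiquitin receptor. The other 4 subunits (PSMD1, PSMD6, PSMD7 and PSMD13) had differences of 0.07 to 0.08 that were not called. Under scaling to the 75th percentile these 4 rose by 0.20 to 0.60 and were called.

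Of the 6 ATPases, which unfold the substrate, 4 (66.7%) rose. PSMC5 ran from 12.05 over 12.13 to 12.34 in LW fetuses at day 90 and from 12.54 over 12.85 to 13.04 at day 110, and its mean rise was 0.63 ± 0.04 (adjusted p = 1.58e-20). PSMC2 ran from 10.60 over 10.69 to 10.84 in LW fetuses at day 90 and from 10.96 over 11.26 to 11.43 at day 110. In MS fetuses PSMC2 ran from 10.44 over 10.54 to 10.63 and from 11.10 over 11.37 to 11.48. Every fetus of day 110 lay above every fetus of day 90 of its own genotype for both genes, as it did for PSMD12, with 7 of 8 MSLW fetuses of day 90 measured for PSMC5. These 3 genes of 44 compare with 6.47% of all kept probes that were higher in this way in all 4 genotypes, and PSME2, the only member lower in this way, with 8.46%. PSMC2 rose by 0.62 ± 0.04 (2.64e-21), PSMC4 by 0.35 and PSMC3 by 0.17. PSMC1 fell by 0.16 (6.35e-05) under quantile normalisation but was 0.31 higher under scaling to the 75th percentile. PSMC6 differed by 0.03 on its brightest probe and was not called, but 7 of its 9 probes were called higher. Under scaling to the 75th percentile PSMC6 rose by 0.32 (adjusted p = 6.83e-13).

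In the core, 3 of 5 measured alpha subunits (60%) and 3 of 4 structural beta subunits (75%) rose, where 37.3% of all kept probes rose. PSMA3 rose by 0.47 ± 0.03 (adjusted p = 8.38e-19) and PSMB3 by 0.55 ± 0.12 (2.96e-05). PSMA2, PSMA4, PSMB1 and PSMB2 rose by 0.14 to 0.29. PSMA5 and PSMA6 were not called on their brightest probes, at -0.04 and 0.03, but 1 of 2 PSMA5 probes and 3 of 5 PSMA6 probes were called higher. Under scaling to the 75th percentile they rose by 0.20 (adjusted p = 2.95e-06) and 0.51 (4.31e-13). PSMB4 fell by 0.21 (1.06e-05) under quantile normalisation and was 0.29 higher under scaling to the 75th percentile.

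The changes of the constitutive catalytic subunits were small under quantile normalisation and larger under scaling to the 75th percentile. PSMB6, the caspase-like site, rose by 0.09 ± 0.03 (adjusted p = 0.00861) and was not called under 8 of 17 settings of the analysis, but rose by 0.60 (1.83e-19) under scaling to the 75th percentile. PSMB7, the trypsin-like site, fell by 0.11 ± 0.03 (0.000501), again with the other sign under scaling to the 75th percentile (0.26). PSMB5, the chymotrypsin-like site, differed by 0.08 ± 0.04 and was not called (0.0703), but rose by 0.17 (0.00042) under that scaling.

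Of the inducible and tissue-specific catalytic subunits, PSMB9 fell and the other 3 were not called in the mean over genotypes. PSMB9 ran from 9.41 over 9.70 to 10.01 in LW fetuses at day 90 and from 8.70 over 9.26 to 9.79 at day 110. In MS fetuses it ran from 10.10 over 10.44 to 11.16 and from 9.49 over 9.55 to 9.91. The mean fall was 0.74 ± 0.07 (adjusted p = 1.24e-14), was called in each of the 4 genotypes and had the same size under scaling to the 75th percentile. PSMB10 differed by -0.12 ± 0.07 (0.0954), PSMB8 by -0.27 ± 0.18 (0.134) and PSMB11, the thymus form, by 0.30 ± 0.12 (0.0175). Within single genotypes, PSMB10 was called lower at day 110 in LW and in LWMS. It was not called in LW under 7 of 18 other settings and in LWMS under 2 of 17. PSMB8 was spread widely within groups, from 6.34 to 7.93 in LW fetuses at day 90.

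The activators moved in opposite directions. PSME4, the activator that binds the core without ubiquitin and is known for the degradation of acetylated histones, had the largest rise of the 44 genes at 0.93 ± 0.06 (adjusted p = 2.43e-20). It ran from 10.29 over 10.41 to 10.62 in LW fetuses at day 90 and from 11.01 over 11.23 to 12.05 at day 110. A second PSME4 probe rose by 0.94. PSME2, an interferon-inducible activator subunit, fell by 0.47 ± 0.04 (7.73e-18), from 12.77 over 12.89 to 13.01 in LW fetuses at day 90 to 12.15 over 12.45 to 12.63 at day 110. The fall of PSME2 was 0.22 under scaling to the 75th percentile (adjusted p = 4.08e-06). PSME1, its partner in the same ring, differed by -0.03 ± 0.04 (0.502), and the inhibitor PSMF1 by 0.38 ± 0.16 (0.0245), close to the background. PSME3 fell by 0.13 on its brightest probe, whereas its other probe rose by 0.91 and the mean of both was 0.39. Among the 6 measured assembly chaperones, PSMG1 and PSMG2, which pair to build the alpha ring, rose by 0.31 and 0.33, and PSMD10 fell by 0.23 (3.77e-05). A second PSMD10 probe gave 0.03, and the mean of both probes -0.10, which was not called (adjusted p = 0.0455).

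**Figure D2:**
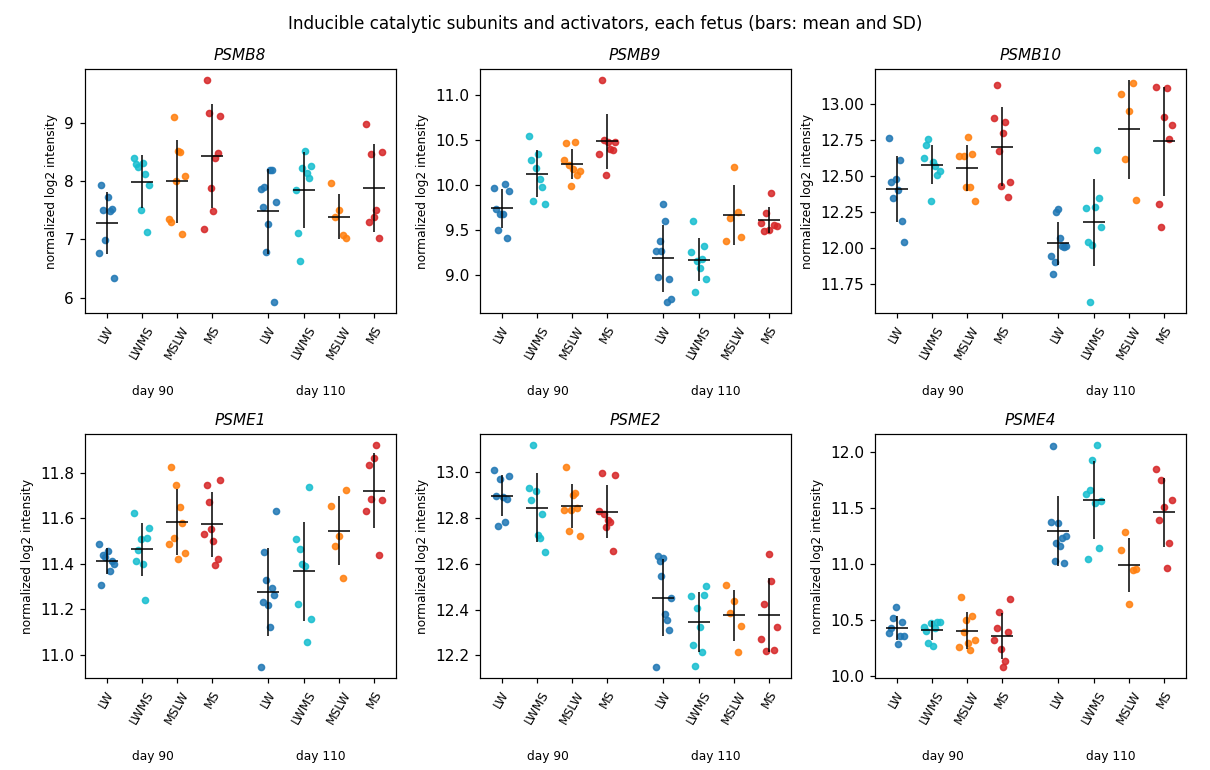
Quantile-normalised log2 intensity (y axis) of PSMB8, PSMB9, PSMB10, PSME1, PSME2 and PSME4 in every fetus, by genotype and day (x axis), with the group mean and SD. PSMB9 and PSME2 are lower at day 110 and PSME4 is higher, and PSMB10 at day 110 is high in MS and MSLW and low in LW and LWMS.

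Within single genotypes, 15 genes rose and 4 fell in LW (background 21.8% and 23.5%), 18 rose and 3 fell in MS (28.6% and 28%), 12 rose and 5 fell in LWMS (25.1% and 25.7%), and 13 rose and 3 fell in MSLW (20.8% and 23.8%). In each genotype the share of members that fell was below the background. Scaling to the 75th percentile gave 27 and 2 in LW, 33 and 2 in MS, 26 and 3 in LWMS, and 28 and 1 in MSLW. Of all kept probes it called 18967 in LW (51.3% of them higher), 24170 in MS (57.6%), 21597 in LWMS (54.3%) and 18696 in MSLW (51.9%). That scaling moved the median age difference of all kept probes in MS from 0.03 to 0.13.

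Probes of 1 gene did not always give the same change. Of the 29 genes with several kept probes, 11 had every probe called higher at day 110 and 2, PSMB9 and PSME2, had every probe called lower. In 25 of the 29 the other probes had a higher median difference than the brightest. PSMD1 differed by 0.07 on its brightest probe and by 0.44 to 0.58 on 7 others. These 7 were not all separate readings, since A_72_P073866 and O8719 share 49 bases, A_72_P472637 and A_72_P189146 share 56, and A_72_P613951 shares 21 and 25 with the latter pair. PSMD13 gave 0.07 and 0.75, and PSMD4 gave 0.22, 0.53 and 0.69. The 12 PSMB4 probes ran from -0.25 to 0.48, and the PSME3 probes gave -0.13 and 0.91. PSMB4, PSMC1 and PSME3 had probes called in both directions. Where 2 or more probes of a gene had the same 60 bases (9 genes), their age differences lay within 0.14 of each other.

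Probes of the same gene were not compared over the whole array, and only the age difference by signal was read there. Kept probes with a mean of 14 or more had a median age difference of -0.13 under quantile normalisation and 0.38 under scaling to the 75th percentile, and 50.5% of them were called lower at day 110. Of the 10 member probes at that signal, 5 were called lower and 2 higher. How far high signal accounts for the differences between probes was not tested.

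**Figure D3:**
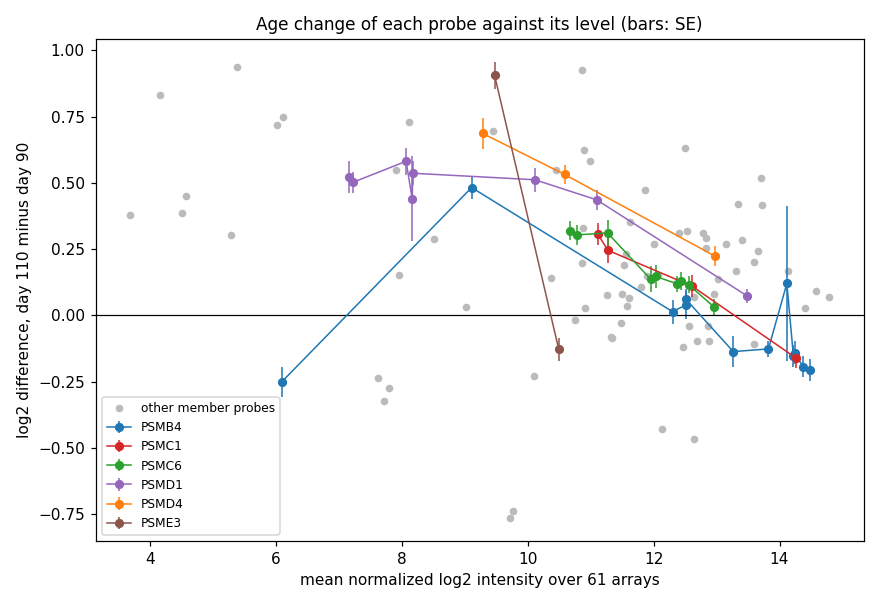
Difference between day 110 and day 90 (log2, y axis) against the mean log2 intensity (x axis) for the 112 proteasome probes, with lines joining the probes of PSMB4, PSMC1, PSMC6, PSMD1, PSMD4 and PSME3. In these genes the brightest probe lies below most of the others, and differences under 0 at high signal, such as PSMB4 and PSMC1, change sign under scaling to the 75th percentile.

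The second comparison was between the purebred fetuses. At day 110, 10 of 44 genes (22.7%) were higher in MS than in LW and 2 (4.55%) were lower, where 13.7% of all kept probes were higher and 15.2% lower. Scaling to the 75th percentile gave 20 higher and 1 lower. Of all kept probes, that scaling called 12642, 56.9% of them higher, against 12287 and 47.5% under quantile normalisation. Of the 12 called genes, 11 had the same sign in all 6 of 8 slides that held both groups, and PSMB9 had it in 5. Here and below, the slides split the same arrays that gave the calls, so signs within slides are no separate support.

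PSMB10, the inducible counterpart of PSMB7, had the largest difference. It ran from 11.81 over 12.01 to 12.27 in LW fetuses and from 12.14 over 12.85 to 13.12 in MS fetuses. The difference was 0.71 ± 0.13 (adjusted p = 8.36e-06), it was positive in 6 of 6 slides, and the 5 PSMB10 probes, 3 of which read 1 stretch, gave 0.70 to 0.91, each of them called. Only 1 MS fetus lay within the range of LW. PSMB9 was 0.42 ± 0.13 higher in MS (0.00871), with 8.70 over 9.26 to 9.79 in LW and 9.49 over 9.55 to 9.91 in MS. PSME1 was 0.44 ± 0.08 higher (1.14e-05), from 10.95 over 11.26 to 11.63 in LW to 11.44 over 11.69 to 11.92 in MS.

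Constitutive subunits were also higher in MS at day 110. PSMB5 ran from 10.79 over 11.09 to 11.30 in LW and from 11.27 over 11.42 to 11.73 in MS (0.42 ± 0.08, adjusted p = 1.19e-05). PSMA3 ran from 11.62 over 11.89 to 12.12 in LW and from 12.12 over 12.24 to 12.38 in MS, without overlap (0.37 ± 0.07, 1.03e-05). It was the only member with MS above LW without overlap at day 110, where 3.77% of all kept probes were. A second PSMA3 probe gave -0.04 (0.924), and the mean of both probes 0.17, which was not called (adjusted p = 0.303). PSMD3 was 0.54 higher (0.000136), and PSMC4, PSMC1, PSMA4 and PSMB7 were 0.18 to 0.33 higher. The 3 other PSMC1 probes gave -0.03 to 0.01, and the mean of all its probes 0.07, which was not called (adjusted p = 0.416). PSMB7 was not called under 6 of 18 settings, with adjusted p up to 0.0635. PSMG4, an assembly chaperone of the alpha ring, was 0.60 ± 0.11 lower in MS (8.58e-06), with 12.87 over 12.97 to 13.24 in LW and 12.22 over 12.32 to 12.88 in MS. PSMD9, a chaperone of the regulatory particle, was 0.28 lower (0.00892) and was not called under scaling to the 75th percentile (0.028).

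**Figure D4:**
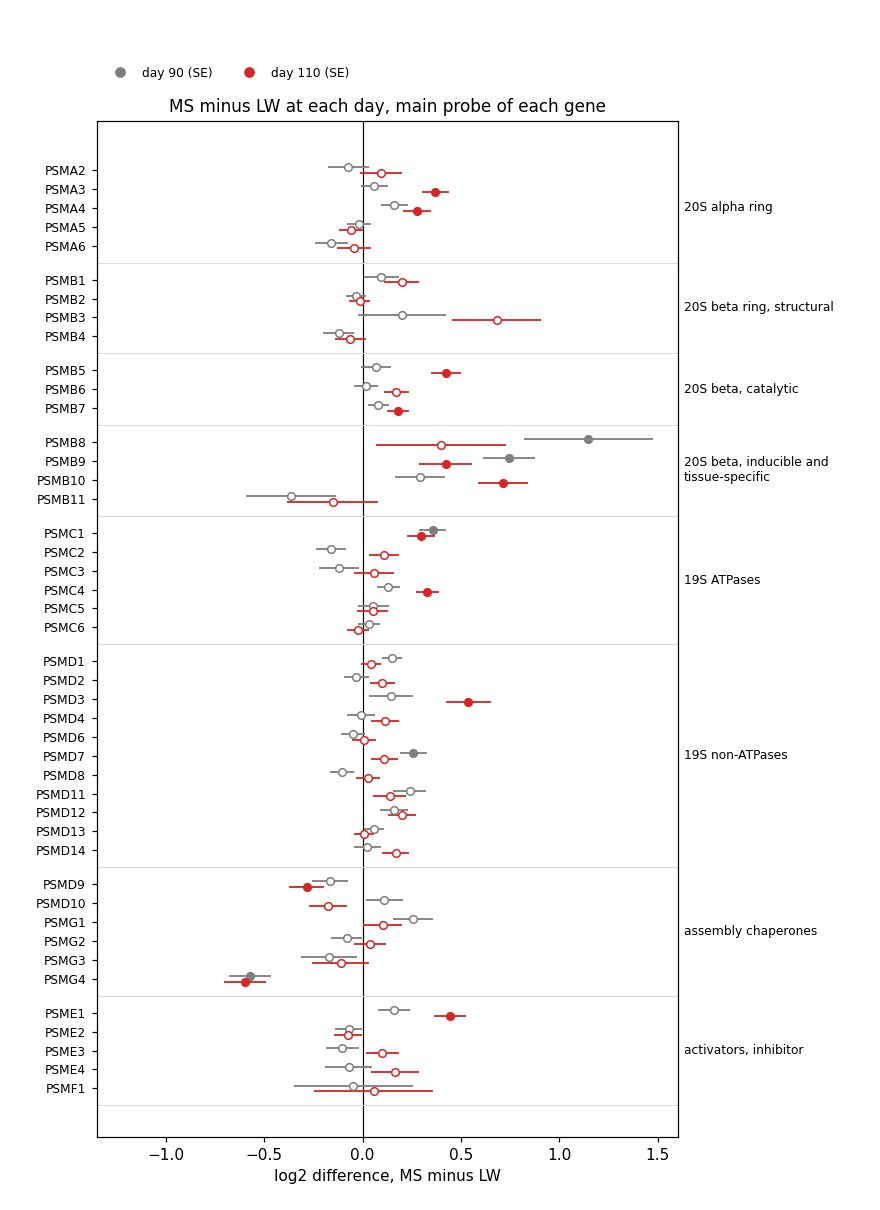
Difference between MS and LW (log2 ± SE, x axis) at day 90 (grey) and day 110 (red) for the proteasome genes (y axis); filled markers passed an adjusted p of 1%. PSMB10 is furthest to the right among the filled markers of day 110 and PSMG4 is to the left at both days.

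At day 90, 4 genes were higher in MS (9.09%, background 6.23%) and 1 was lower (2.27%, background 6.61%). PSMB9 was 0.74 ± 0.13 higher (adjusted p = 1.78e-05), and every MS fetus, from 10.10 up, lay above every LW fetus, up to 10.01. PSMB9 was 1 of 2 members with MS above LW in this way at day 90, where 3.09% of all kept probes were. It was higher in MS in 8 of 8 slides. PSMB8 was 1.15 ± 0.33 higher (0.00747), with 6.34 over 7.49 to 7.93 in LW and 7.17 over 8.44 to 9.73 in MS. PSMB8 was positive in 7 of 8 slides, and its 3 probes gave 0.98 to 1.15, of which only the brightest was called. The brightest shares 37 bases with another PSMB8 probe, so these are not separate readings. PSMB8 was not called under 5 of 18 settings, with adjusted p up to 0.0217. PSMC1 was 0.36 higher (8.44e-05), whereas its 3 other probes gave -0.14 to 0.03, and PSMD7 was 0.26 higher (0.00363). PSMG4 was 0.57 ± 0.11 lower (3.73e-05), with 12.16 over 12.95 to 13.20 in LW and 12.02 over 12.34 to 12.49 in MS. PSMG4 was thus lower in MS at both days, and PSMB9 was higher at both, although PSMB9 at day 110 was not called under 6 of 18 settings (adjusted p up to 0.0172).

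The test of whether MS and LW differed in their change with age called 0 of 44 genes, where 5.96% of all kept probes were called, and 8 genes had an unadjusted p under 0.05. The nearest were PSMA3, at 0.31 more rise in MS (adjusted p = 0.0207), and PSMB5, at 0.36 (0.0212). PSMB5 was called under 4 other settings and PSMA3 under 2. PSMB10, called at day 110 and not at day 90 on its brightest probe, was therefore not shown to differ between breeds more at one day than at the other. Its other probes gave 0.12 to 0.65 at day 90, and both probes with the same 60 bases were called there, at 0.65 (adjusted p = 0.000592) and 0.57 (0.00291).

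The reciprocal crosses, which differ in which parent brought which breed's genome, were compared next. They also differ in the breed of the sow that carried them. Parental genome, sow breed and litter therefore cannot be told apart in this comparison. At day 90 no member was called (0 of 44; 3 at an unadjusted p under 0.05), where 0.5% of all kept probes were called. At day 110, 1 member was higher and 1 lower in MSLW than in LWMS, with backgrounds of 0.547% and 0.37%. PSMB10 was 12.33, 12.62, 12.95, 13.07 and 13.14 in the 5 MSLW fetuses and ran from 11.62 over 12.21 to 12.68 in LWMS. Only 2 MSLW fetuses lay within the range of LWMS. The difference was 0.65 ± 0.14 (adjusted p = 0.00532), positive in 5 of 5 slides, and 4 of 5 PSMB10 probes were called (0.53 to 0.82 over all 5). It was not called under 5 of 17 settings, among them leaving out MSLW replicate 1, 3 or 4, with adjusted p up to 0.0289. The MSLW and MS fetuses, which share a Meishan sire, had PSMB10 medians of 12.95 and 12.85 at day 110, and the LWMS and LW fetuses had 12.21 and 12.01. At day 90 the 4 medians lay between 12.43 and 12.73, with 1 MSLW fetus left out because its spot was not uniform.

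PSME4 was lower in MSLW than in LWMS at day 110. It was 10.64, 10.94, 10.95, 11.12 and 11.28 in the MSLW fetuses and ran from 11.05 over 11.59 to 12.06 in LWMS. The difference was -0.58 ± 0.14 (adjusted p = 0.00886), negative in 5 of 5 slides. It was not called under 6 of 17 settings, among them the mean of its probes and leaving out MSLW replicate 1, 3, 4 or 5. Leaving out replicate 3 gave -0.49 (adjusted p = 0.066). The second PSME4 probe was not called. PSMB9 (0.50, 0.0587) and PSMG4 (0.46, 0.0215) were not called.

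In the model with the genotypes of sow and boar, no member was called for an interaction of age with the maternal genotype (0 of 44, 7 at an unadjusted p under 0.05, background 3.04%) or with the paternal genotype (0 of 44, 2 at an unadjusted p under 0.05, background 0.462%). PSMB10 was nearest for the paternal genotype, at 0.54 (adjusted p = 0.0192), and was called under 4 other settings. PSME4 was nearest for the maternal genotype, at 0.40 (0.0322).

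The genes that work beside the immunoproteasome were read from a list of 9 interferon and peptide-loading genes. Of these 9, 2 (22.2%) rose with age (ERAP1 by 0.82 and NLRC5 by 0.53) and 5 (55.6%) fell. Of all kept probes, 37.3% rose and 35% fell. TAP1, the peptide transporter subunit, fell by 0.52, and IRF1 and IRF7, transcription factors of the interferon response, fell by 0.81 and 0.66. B2M, the light chain of MHC class I, fell by 0.22 under quantile normalisation and was 0.29 higher under scaling to the 75th percentile. At day 90, 3 of the 9 (33.3%) were higher in MS than in LW, where 6.23% of all kept probes were. These were B2M by 0.72, TAP1 by 0.54 and IRF1 by 0.53. At day 110 only ERAP1 was called, 0.51 higher in MS, where 13.7% of all kept probes were higher. Under scaling to the 75th percentile ERAP1 was not called (adjusted p = 0.0114) and B2M was, 0.53 higher in MS (5.84e-05). In the pig assembly Sscrofa11.1 of RefSeq, TAP2, PSMB8, TAP1 and PSMB9 follow each other on chromosome 7, EMC9 lies between PSME2 and PSME1 on the same chromosome, and PSMB10 lies between CTRL and LCAT on chromosome 6.

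Markers of immune cells, which express the immunoproteasome, were read beside these genes. Of 15 listed, 11 were measured and 4, CD3E, CD8A and CD2 among them, were not kept. The summed linear intensity of the 11 had group medians of 9595 to 10010 at day 90 and 7051 to 7662 at day 110. Of the 11, 6 (54.5%) fell, AIF1 by 1.32 and LAPTM5 by 1.10 among them. Of all kept probes 37.3% rose with age and 35% fell, which holds as the background for each marker list below. At day 90 the sum spanned 8881 to 11300 in LW and 8690 to 10430 in MS, so the groups overlapped, and CD79B was the only marker called (0.91 higher in MS). At day 110 it spanned 6997 to 8015 in LW and 6265 to 8492 in MS, again with overlap, and CD14 was 0.52 higher and CD4 0.74 lower in MS. The part of these cells in the fall of PSMB9 and PSME2 was not tested. Of the 6 skeletal muscle markers, 4 rose with age and MYLPF fell by 0.08 under quantile normalisation, whereas all 6 rose, MYLPF by 0.43, under scaling to the 75th percentile. The sum of the muscle markers had group medians of 1707000 to 1717000 at day 90 and 1866000 to 1922000 at day 110. Of 4 endothelial markers, CDH5 and PECAM1 fell by 1.23 and 0.98 and VWF rose by 1.29. Of 4 adipocyte markers, 3 fell with age under quantile normalisation, 2 of them (ADIPOQ and PLIN1) under both scalings, and FABP4 was 1.16 lower in MS at day 110. All 4 fibroblast markers fell with age, by 0.80 to 1.53, and their sum at day 110 had medians of 111600 in LW and 57030 in MS. The part of these cell types in the changes of the subunits with age or between breeds was not tested.

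Other lists around the proteasome were counted in the same way, beside the 37.3% of all kept probes that rose with age and the 35% that fell. Among the 6 measured proteasome genes outside the naming rule, UCHL5, TXNL1 and SHFM1 rose by 0.55, 0.19 and 0.11, and none fell. PAAF1, an assembly factor of the regulatory particle, was lower in MS than in LW, by 0.63 at day 90 and 0.90 at day 110. Among the ubiquitin genes and E1 enzymes, UBA6 fell by 0.85. RPS27A, UBB and UBA1 fell by 0.22 to 0.37 under quantile normalisation and rose by 0.14 to 0.28 under scaling to the 75th percentile.

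Of the 7 shuttle and p97 genes, UFD1L, NPLOC4 and UBQLN4 rose by 0.65, 0.61 and 0.15. VCP, the p97 segregase itself, fell by 0.17 under quantile normalisation and was 0.34 higher under the other scaling. Of the 6 measured genes of the NRF1 and NRF2 pathway, which drives transcription of proteasome genes, 4 (66.7%) rose and 1 (16.7%) fell. The shares of all kept probes were 37.3% and 35%. On their brightest probes, NFE2L1 rose by 0.61, NFE2L2 by 0.56, KEAP1 by 0.48 and MAFK by 1.39. MAFG fell by 0.53, and all of these directions held under both scalings. Over all 15 kept probes of the list, 7 were called higher and 7 lower under quantile normalisation, with a median difference of -0.21.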

How the data were processed

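RNA of 61 fetal longissimus muscles was measured on one-colour Agilent porcine arrays, on 8 slides that each held nearly 1 array of every group. Per the file headers and the labels, the deposited scanner files hold intensity values from Agilent Feature Extraction 10.10.1.1. The authors also deposited a table of quantile-normalized log2 median signals, whose rows were matched to scanner rows by row number (r = 0.9987 on the first array), and this table served as an alternative. The background-subtracted intensity was used here. Control spots were left out, non-uniform spots (4 to 802 per array) were set to missing, log2 values were quantile normalized, and spots of a probe were averaged. A probe was kept if the scanner marked it as well above background for no less than 80% of a group's arrays.

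Means of 8 groups were fitted with limma 3.58.1 in R 4.3.3, and parental effects with age, sow genotype, boar genotype and their pairwise interactions. The study's random sow effect could not be fitted, because the labels do not name sows. The procedure was tested on simulated data. The members and the other gene lists were chosen with earlier results of these data known. Genes given with full values were the catalytic and activator members, members in the study's additional gene lists, the 6 largest called differences in each direction, and members called in the crosses. Replicate numbers follow sample order. The gene order came from the RefSeq table of Sscrofa11.1, in which all 44 genes were found, and no coordinates were used. Some genes of the other lists are not reported here. Arrays give no read depth, and their number limits the precision. The alternatives changed the signal column, background correction, scaling, filter, non-uniform spots, slide block, variance moderation, probe choice, samples fitted and fetuses left out.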

Additional observations from a re-analysis of the deposited data

Results flagged for a closer look

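In 8 of 184 groups tested, 1 fetus stood apart from the rest of its group for a subunit described above, and chance gives about 1 in 20. At day 90 in LW, replicate 8 had the highest PSMA3 (11.87, next 11.66) and the lowest PSMB4 (14.33, next 14.57). At day 90 in MS, replicate 2 had the highest PSMB9 (11.16, next 10.50) and replicate 8 the lowest PSMD9 (11.001, next 11.36). At day 90 in MSLW, replicate 8 had the lowest PSMC5 (11.73, next 12.07). At day 110, PSMD3 was highest in MS replicate 1 (7.46, next 6.81) and lowest in MSLW replicate 3 (5.77, next 6.29). PSME4 was highest in LW replicate 2 at day 110 (12.05, next 11.38). The difference between MS and LW in PSMD3 at day 110 was positive in 6 of 6 slides, that of PSMB9 at day 90 in 8 of 8.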

How the results depend on the processing

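Counts of called member genes moved by over 1.5 times in 43 of 349 comparisons with another setting, and 8 values of single genes reversed. Scaling to the 75th percentile gave 34 higher and 3 lower genes for the mean age change, 27 and 2 in LW, 33 higher in MS, 26 and 3 in LWMS, 28 and 1 in MSLW, 20 and 1 between the breeds at day 110, 2 for the difference in age change and 1 for the paternal interaction. Over all 42436 kept probes, this scaling called 3162 for the difference in age change and 216 for the paternal interaction. The same scaling reversed PSMB4 (0.29 on average, 0.23 in LWMS), PSMB7 (0.26, 0.11 in LW) and PSMC1 (0.31, 0.15 in MSLW). The mean of a gene's probes reversed PSMC1 (0.13) and PSME3 (0.39), and gave 2 lower genes for the mean age change and in LW, 19 higher and 2 lower in LWMS, 2 higher at day 90, 0 lower in the crosses at day 110 and 1 paternal interaction. The median signal and the deposited values each gave 2 lower genes in LW, 1 for the difference in age change and 0 higher in the crosses at day 110. The normexp correction gave 1 for the difference in age change, and the slide block gave 2, with 1 paternal interaction. Without a filter 1 gene was lower in MS at day 110 and 0 were lower in the crosses at day 110. Keeping non-uniform spots gave 2 lower genes in LW and 1 in MS against LW at day 110, and fitting LW and MS only gave 1 there. Leaving out 1 MSLW fetus of day 110 at a time gave 0 to 1 higher and 0 to 1 lower genes in the crosses at day 110 and 0 to 1 paternal interactions. The cause was not tested. Of the values of single genes, 1178 kept their call and direction and 83 were no longer called. Replicate numbers only follow sample order and pair no fetuses, whereas the slides hold the groups side by side, which the slide block and the differences within slides used. The limits are the 5 MSLW fetuses at day 110, the sows missing from the labels, and probes near background such as PSMF1.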

Other observations

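PSMC3IP, which shares its name with the proteasome genes but acts in meiotic recombination, had 2 kept probes, 1 of which fell by 3.24 between day 90 and day 110.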
